A study of Arabidopsis thaliana with 24 samples.

Results

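AFR (ATTENUATED FAR-RED RESPONSE, locus AT2G24540) is 1 of the 13356 Arabidopsis thaliana genes that the array annotation names, and 1 probe set stands for it. Its probe set was found by that annotation, and its level was read on all 24 arrays, which fall into 8 sets of 3. All plants were Col-0, the standard laboratory accession, kept in continuous light, and total RNA was labelled with biotin. Set 7 holds the green parts of seedlings that grew in soil at 23 °C, in air of 65% relative humidity. Sets 22, 23 and 24 hold whole plants on the same soil regime, taken after the floral transition and before the stem elongated; their labels are identical and call them a test of developmental drift. Sets 96 and 100 hold the green parts of seedlings on 0.5x GM, a germination medium, at 20 °C. Sets 97 and ATGE_101 hold the same tissue on the same medium with 5% sucrose. Most plants of sets 96 and 97 were noted to look like 7-day-old plants of set 7, while no age is given for sets 100 and ATGE_101. The labels do not say that the 3 arrays of a set came from separate cultures, so the spread given here may be technical. The sets on soil and on medium also differ in temperature.

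AFR is an F-box protein with kelch repeats. F-box proteins are the parts of SCF ubiquitin ligases that pick the protein to be tagged for breakdown. AFR is known as a positive regulator of phytochrome A signalling, the route by which Arabidopsis seedlings sense far-red light, and plants with less AFR respond weakly to it. The 3 named gene groups nearest to this role are the phytochrome pathway, other F-box and SCF genes, and the circadian clock.

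AFR was highest in soil-grown seedlings. Its intensity on arrays A, B and C of set 7 was 190.4, 185.7 and 176.7. The mean was 184 ± 6.98 (SD, n = 3). The arrays of ATGE_101, the sucrose-fed seedlings without a stated age, read 181.3, 172.6 and 161.8, with a mean of 172 ± 9.78 (SD, n = 3). These 2 sets overlapped and stood above every array of sets 22, 23, 96, 97 and 100; array A of set 24 lay just below the lowest array of set 7 and inside the range of ATGE_101. AFR was chosen by these same array levels, read over all 8 sets, so they are given as a description with no test.

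The whole-plant sets took the widest range. In set 23 AFR read 117.9, 155.1 and 126.7, with a mean of 133 ± 19.5 (SD, n = 3). In set 24 it read 176.2, 101.3 and 98.3, with a mean of 125 ± 44.1 (SD, n = 3). In set 22 it read 63.6, 39.0 and 50.6, with a mean of 51.1 ± 12.3 (SD, n = 3). Set 22 was the lowest of the 8, and its highest array lay under the lowest array of every other set, although its labels are those of sets 23 and 24.

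The remaining medium-grown sets lay between. In set 96 AFR read 98.7, 94.5 and 111.9, with a mean of 102 ± 9.06 (SD, n = 3). In set 97 it read 98.1, 93.0 and 82.8, with a mean of 91.3 ± 7.79 (SD, n = 3). In set 100 it read 90.9, 74.6 and 73.3, with a mean of 79.6 ± 9.77 (SD, n = 3). Neighbours in this run overlapped, set 96 with 97 and set 97 with 100, while set 96 and set 100 were apart by only 3.62 units.

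**Figure D1:**
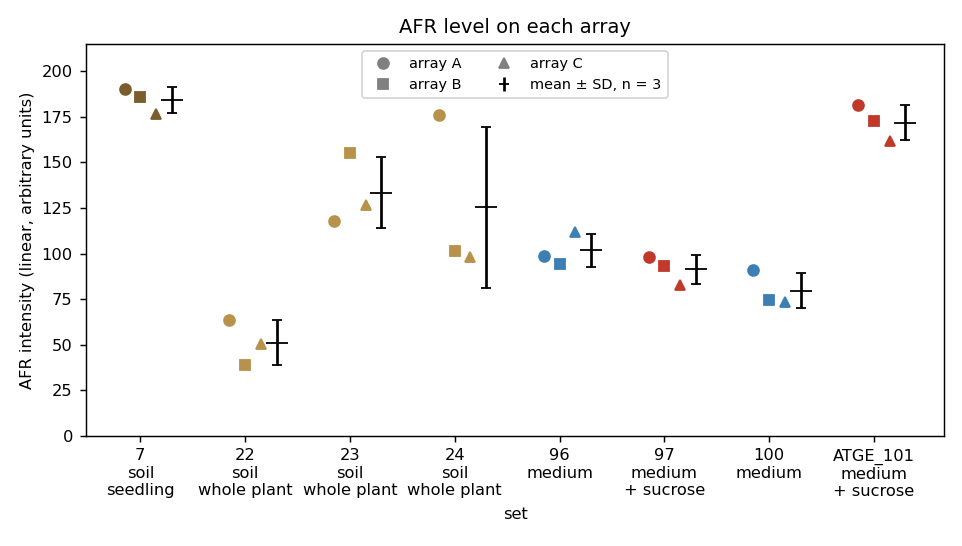
AFR intensity (linear, arbitrary units, y axis) on each of the 24 arrays by set (x axis), with arrays A, B and C as circle, square and triangle and the mean ± SD of 3 arrays beside them; brown is soil, blue is medium and red is medium with 5% sucrose. Sets 7 and ATGE_101 sit at the top, set 22 at the bottom, and array A of set 24 reads 176.2 against 101.3 and 98.3 for its partners.

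From highest to lowest mean the order was 7, ATGE_101, 23, 24, 96, 97, 100 and 22. The highest set mean was 3.61 times the lowest, and the highest array 4.89 times the lowest. Of the 28 pairs of sets, 22 did not overlap on any array and 6 did. The overlapping pairs were 7 with ATGE_101, 23 with 24, 24 with 96, 24 with ATGE_101, 96 with 97, and 97 with 100. Overlap was not counted for the other probe sets, so the 22 pairs do not set AFR apart from them. In the limma comparisons described below, the share of all probe sets called ran from 0.853% (24 minus 23) to 70.8% (96 minus 7). The pair 24 and 97 did not overlap but differed by less than the larger SD. Set 24 cleared set 97 by 0.213 units and missed set 7 by 0.456 units, so both gaps were smaller than the SD of any set. AFR was well inside the range of the array: its mean intensity stood at the 62.0th percentile of the 15471 probe sets tested.

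Parts of this order were shared by some of the other 15470 tested probe sets. Set 7 was also the highest set for 4883 of them (31.6%), and set 22 the lowest for 1405 (9.08%). Both held for 457 probe sets (2.95%).

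The question put by the medium-grown sets is how sucrose changed the seedlings. AFR was higher with sucrose in the pair without a stated age, and its arrays overlapped in the pair that resembled 7-day-old plants. On the scale of log2(intensity + 6.75), ATGE_101 minus set 100 was 1.05 ± 0.17 (SE, n = 3 and 3), a 2.07-fold difference, and all 3 sucrose arrays lay above all 3 without it. Set 97 minus set 96 was -0.15 ± 0.17 (SE, n = 3 and 3), with arrays from 82.8 to 98.1 and from 94.5 to 111.9. The SE uses 1 spread pooled over all 8 sets in limma, so it is equal in every comparison of 3 with 3 arrays. The sets themselves differed in spread: the log2 SD of AFR was 0.12 in sets 96 and 97 and 0.45 in set 24. The difference between the sucrose effects of both pairs was 1.2 ± 0.24 (SE, n = 6 and 6). It stood at the 99.0th percentile of the same difference over all tested probe sets, while set 97 minus set 96 stood at the 24.2th. These ranks come from the levels by which AFR was chosen, so they are a description and no test. For scale, 16.7% of probe sets passed an adjusted p of 0.05 in ATGE_101 minus set 100 in limma, 33.1% in set 97 minus set 96, and 12% in the difference of the effects.

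Some RNA measures also parted ATGE_101 from set 100. The ratio of 3' to 5' signal of the actin control was 8.62 ± 0.426 (SD, n = 3) in ATGE_101 and 3.60 ± 0.789 (SD, n = 3) in set 100. It was 4.12 ± 1.92 and 3.80 ± 0.374 (SD, n = 3 each) in sets 96 and 97. A second actin design went the other way, with 1.96 ± 0.069 in ATGE_101 and 2.23 ± 0.132 in set 100 (SD, n = 3 each), again without overlap. The array median intensity was 42.7 ± 0.290 against 39.9 ± 0.762 (SD, n = 3 each), also without overlap. GAPDH gave 1.33 in ATGE_101 and 1.39 in set 100, and ubiquitin 2.31 and 2.32, with overlapping arrays. The BioB spike-in control read 53.0 ± 19.1 and 44.9 ± 19.0 (SD, n = 3 each), also with overlapping arrays. Its lowest readings of the 24 arrays were 23.2 on array A of set 100 and 32.4 on array A of ATGE_101. The part of RNA quality in the AFR difference was not tested.

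Read along the other axis, AFR was lower in set 100 than in set 96 without sucrose and higher in ATGE_101 than in set 97 with it. Set 100 minus set 96 was -0.33 ± 0.17 (SE, n = 3 and 3). ATGE_101 minus set 97 was 0.87 ± 0.17 (SE, n = 3 and 3). The arrays did not overlap in either comparison, in which 30.5% and 36.8% of probe sets passed the limma test. These 4 values come from the same 4 sets and are not independent of each other.

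**Figure D2:**
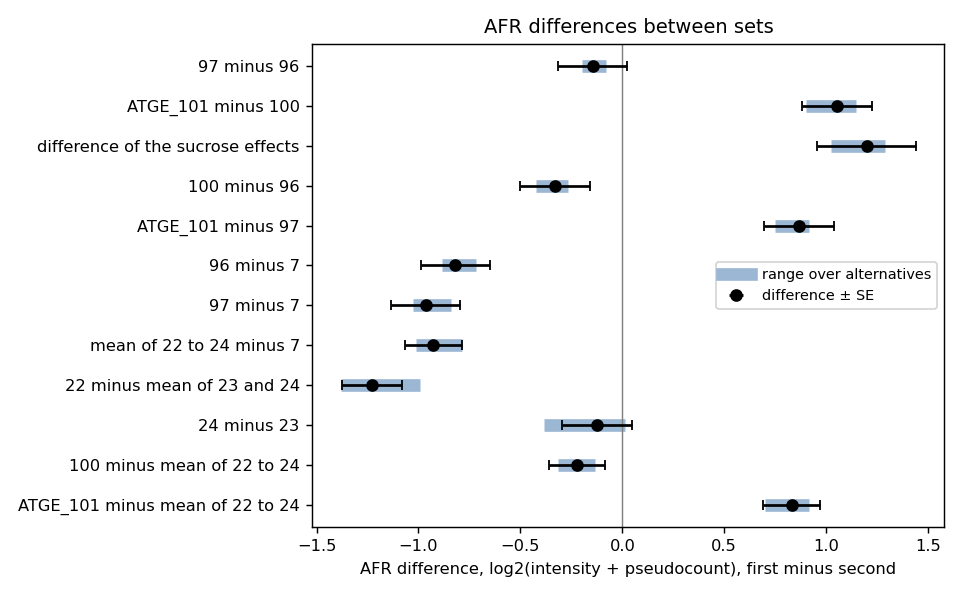
AFR differences between sets on the log2(intensity + 6.75) scale (x axis, first named minus second), as points with ± SE from the fit over 24 arrays, and as bars the range over the alternative settings. ATGE_101 minus 100 lies at 1.05 and 97 minus 96 at -0.15; the bar of 24 minus 23 crosses 0.

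Among the whole plants AFR parted set 22 from the other two. Set 22 minus the mean of sets 23 and 24 was -1.23 ± 0.15 (SE, n = 3 and 6), and no array of set 22 reached any array of the other sets. It stood at the 0.0776th percentile of the same difference over all tested probe sets, and 17.6% of probe sets passed the test in that comparison. That rank too comes from the levels by which AFR was chosen and is no test. Set 24 minus set 23 stood at the 19.6th percentile. The actin 3' to 5' ratio was 9.51 ± 2.0, 10.1 ± 1.66 and 9.01 ± 1.14 in sets 22, 23 and 24 (SD, n = 3 each), with overlapping arrays. The GAPDH ratio was 1.53 ± 0.233, 1.16 ± 0.0564 and 1.83 ± 0.856, and the second actin ratio 2.29 ± 0.573, 1.83 ± 0.107 and 2.49 ± 0.744 (SD, n = 3 each). On GAPDH every array of set 22 lay above every array of set 23 and within the range of set 24; the part of these measures in the AFR difference was not tested. Set 24 minus set 23 was -0.13 ± 0.17 (SE, n = 3 and 3), with overlapping arrays and 0.853% of probe sets past the test. Without array A, the mean of set 24 fell to 99.8 (n = 2), set 23 was then 1.34 times higher, and the difference became -0.39. That array had the highest GAPDH 3' to 5' ratio of the 24, at 2.81, and the highest second actin ratio, at 3.35; whether this bears on its AFR reading was not tested.

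AFR was higher in soil-grown seedlings than in soil-grown whole plants and than in the medium-grown sets 96 and 97. The mean of sets 22 to 24 minus set 7 was -0.93 ± 0.14 (SE, n = 9 and 3), set 96 minus set 7 was -0.82 ± 0.17, and set 97 minus set 7 was -0.96 ± 0.17 (SE, n = 3 and 3). In these comparisons 65.2%, 70.8% and 65.3% of all probe sets passed the test, so most probe sets differed there. The SE rests on the spread of arrays within sets and leaves out the spread between sets 22, 23 and 24. Their AFR log2 means were 5.83, 7.12 and 7.00, against 7.58 in set 7, so set 22 weighed most in the whole-plant mean difference. Against the mean of the whole plants, set 100 was lower by a difference of -0.22 ± 0.14 and ATGE_101 higher by 0.83 ± 0.14 (SE, n = 3 and 9), with 61.9% and 59.3% of probe sets past the test. Taken set by set, every array of set 100 lay above set 22 and below sets 23 and 24. RNA measures also parted set 7 from the others. Its GAPDH 3' to 5' ratio was 0.933 ± 0.0452 (SD, n = 3), with each array below every array of the other sets. The second actin ratio had its lowest mean there, 1.80, and the ubiquitin ratio its highest, 3.93, while the first actin ratio was 5.96, within the range of the other set means. The part of these measures in the AFR differences was not tested. In RNA from mixed tissue, fewer cells that express a gene and less RNA per cell cannot be told apart.

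The tissue labels were set against markers of other tissues. Of 10 root markers 3 had a probe set. Their summed intensity ran from 27.4 to 85.1 over the whole-plant arrays, from 717 to 809 in set 7 and from 990 to 2773 over the medium-grown arrays. PYK10, a beta-glucosidase abundant in roots and also present in young seedlings' shoots, had set means of 747 in set 7 and 1000.4 to 2644 on medium, nearly all of those sums. In the whole plants its means were 12.6 to 34.4, of summed means of 36.6 to 62.2. EXPA7 and EXPA18, expansins of root hair cells, had set means of at most 10.9 and 21.9. The root-marker sum was thus lower on every array labelled whole plants than on every array labelled green parts. By the labels alone the whole plants would be the sets with roots, so the order of the sum ran against them. EXPA18 did not share that order. Its mean was 18.0 in the whole plants, 12.1 in set 7, 7.68 in set 100 and 14.0 in ATGE_101. In sets 96 and 97 it was 16.3 and 21.9. Set 100 minus whole plants was -0.79 for EXPA18 (limma, adjusted p = 0.00096). Whole plants minus set 7 was 0.42 (adjusted p = 0.055) and ATGE_101 minus whole plants -0.32 (adjusted p = 0.15), neither called. The sum rests on PYK10, which seedling shoots also hold, and whether roots were in any set was not tested. The name whole plants is kept here as the label gives it. ICL, isocitrate lyase of germinating seeds, was the 1 seed marker of 6 with a probe set; it read 131 ± 18.0 in set 96, 29.2 ± 8.15 in set 97 (SD, n = 3) and at most 1.67 as a mean elsewhere. The AFR arrays overlapped between sets 96 and 97, whereas those of ICL did not, and the part of tissue makeup in the AFR differences was not tested. None of the 6 floral markers had a probe set of its own. The 3 chlorophyll a/b-binding genes LHCB4.1, LHCB4.2 and LHCB4.3, which serve photosystem II in green tissue, were read in every set, with lowest set means of 3286, 2367 and 167. They did not change alike between sets. From set 7 to set 96 the mean of LHCB4.3 fell from 1342 to 182 and that of LHCB4.1 from 4599 to 3910. Over the same sets LHCB4.2 rose from 2380 to 2967.

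A few probe sets followed AFR over the 24 arrays. The measure was Pearson's r on log2 values, taken over 24 arrays that are 8 sets of 3; the points share their set, so r is a description. Over all tested probe sets the median r was 0.06, and 95% lay between -0.52 and 0.59. An r of at least 0.8 was reached by 15 probe sets (0.097%), 9 of which carry no single gene name. Among the 8292 named genes ranked, the 8 most alike were AT3G59910 (0.87), AT1G64500 (0.84), AT2G15020 (0.84), AT1G66540 (0.82), AT1G64140 (0.81), AT2G21300 (0.81), Phox3 (0.79) and UGT71C4 (0.78). UGT71C4 belongs by its name to the UDP-glycosyltransferases, which attach sugars to small molecules. With array deviations from the set means in place of the values, r fell to between 0.06 for AT1G64140 and 0.59 for AT1G64500, so the likeness lay mostly between sets.

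AT2G15020 followed AFR in part, with a wider swing. Unlike AFR, it had its lowest set mean in set 100, and its mean in ATGE_101 lay below those of sets 23 and 24. It read 81.0 ± 11.4 in set 7, 9.14 ± 3.26 in set 22, 8.10 ± 1.64 in set 100 and 41.6 ± 4.44 in ATGE_101 (SD, n = 3 each). It read 47.7 ± 19.2 in set 23 and 46.4 ± 13.2 in set 24 (SD, n = 3 each), and in set 96 its mean of 18.1 lay under the 27.7 of set 97, the reverse of the AFR order. AT3G59910 followed AFR within a narrow range, from 72.4 ± 4.99 in set 22 to 116 ± 14.1 in set 7, with 75.5 ± 10.1 in set 100 and 115 ± 11.1 in ATGE_101 (SD, n = 3 each). AT1G64500 read 63.1 ± 9.49 in set 22 and 205 ± 23.9 in ATGE_101 (SD, n = 3 each). Unlike AFR, its mean was higher in ATGE_101 than in set 7, at 190. Its means of 165 in set 96 and 151 in set 100 also lay above the 149 of set 23, where AFR had the reverse order. Nothing about shared function or control follows from r.

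The 4 named genes most opposite to AFR were AT5G11000 (-0.80), MED6 (-0.74), ATPMEPCRB (-0.72) and AT3G49720 (-0.71). AT5G11000 read 82.3 ± 4.21 in set 7, 211 ± 36.3 in set 22, 186 ± 20.6 in set 100 and 109 ± 17.7 in ATGE_101 (SD, n = 3 each), the mirror of AFR in each. MED6, a subunit of the Mediator complex that links transcription factors to RNA polymerase, read 37.4 ± 3.72 in set 7 and 67.7 ± 3.79 in set 22 (SD, n = 3 each). ATPMEPCRB, a pectin methylesterase that modifies the cell wall, read 22.2 ± 2.22 in set 7 and 256 ± 70.9 in set 22 (SD, n = 3 each), but 92.2 and 90.3 in sets 100 and ATGE_101 and so did not mirror AFR there. Which genes are named here depends on how r is taken: over the 8 set means 4 of the 8 most alike and 1 of the 4 most opposite stayed in their group.

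**Figure D3:**
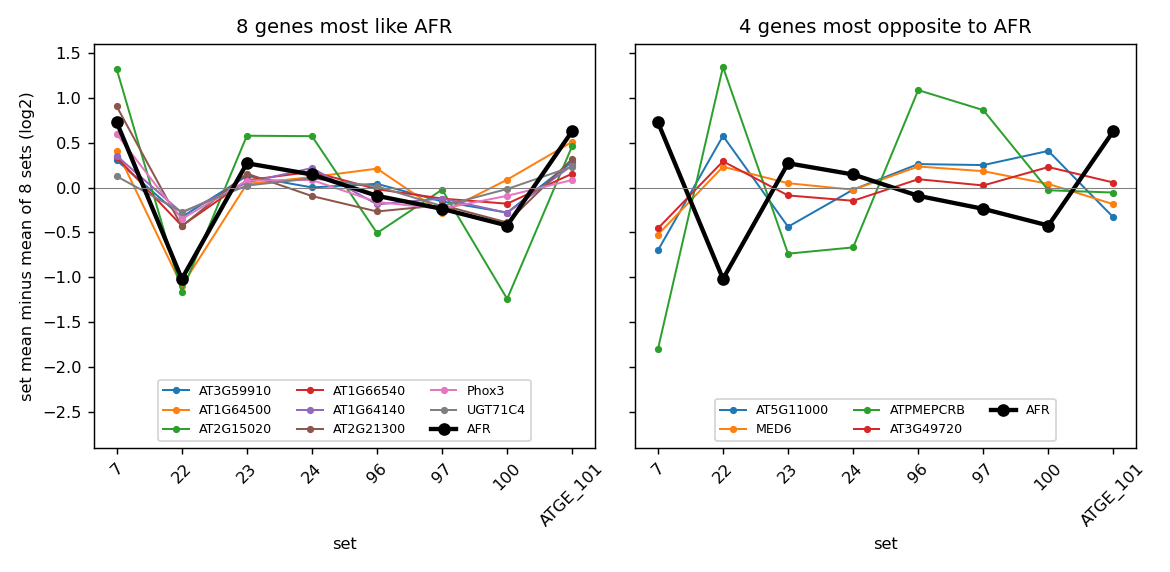
Set mean of log2(intensity + 6.75) minus the gene's mean over the 8 sets (y axis, log2) by set (x axis), for the 8 named genes most like AFR (left) and the 4 most opposite (right), with AFR in black; lines only join the sets of 1 gene. AT2G15020 swings more widely than AFR at sets 7, 22 and 100, and ATPMEPCRB is near its own mean in sets 100 and ATGE_101.

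The phytochrome and far-red list was thinly covered: of its 33 genes, 2 had a probe set of their own, and neither followed AFR closely. HYH is a bZIP transcription factor related to HY5 that promotes light responses. Its intensity was 90.6 ± 7.81 in set 7, 99.8 ± 7.23 in set 96 and 93.1 ± 5.53 in set 97, against 36.0 ± 0.862 in set 100 and 54.5 ± 3.28 in ATGE_101 (SD, n = 3 each). Over the whole plants the means were 32.9, 52.0 and 53.0 in sets 22, 23 and 24. HYH fell from set 96 to set 100 by 1.32 on the log2 scale (limma, adjusted p = 6.5e-05) and from set 97 to ATGE_101 by 0.71 (adjusted p = 0.012). It was also lower in whole plants than in set 7, with a difference of -0.95 (adjusted p = 5.7e-05).

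HYH, like AFR, had a lower mean in set 22 than in sets 23 and 24. Set 22 minus the mean of sets 23 and 24 was -0.55 (limma, adjusted p = 0.039), and the adjusted p ran from 0.0026 to 0.24 over 19 alternatives, 12 of which lost the call. It lost the call without array A (0.073) or C (0.22) of set 22, B (0.076) or C (0.091) of set 23, or A (0.085) or C (0.056) of set 24. ATGE_101 minus set 100 was 0.52 for HYH, the same sign as AFR, with an adjusted p of 0.098 (limma). The r of HYH with AFR was 0.46 over the 24 arrays and fell to 0.31 without the 2 arrays farthest from the AFR median.

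FHL, which carries light-activated phytochrome A into the nucleus, had its lowest level where AFR was highest. It read 9.71 ± 2.73 in set 7 and between 28.8 and 36.7 as set means in sets 22, 23, 24, 96 and 97 (n = 3 each). In sets 100 and ATGE_101 it read 62.1 ± 3.76 and 63.7 ± 2.63 (SD, n = 3 each). Set 96 minus set 7 was 1.24 (limma, adjusted p = 1.9e-08), whole plants minus set 7 was 1.21 (adjusted p = 2.1e-09), set 100 minus set 96 was 0.83 (adjusted p = 3.7e-05) and ATGE_101 minus set 97 was 0.70 (adjusted p = 0.00018). The FHL arrays of set 7 read 6.87 to 12.3, under the filter of 22.9 and near the pseudocount of 6.75. Set 96 minus set 7 ran from 0.68 to 1.59 over 16 alternatives, and whole plants minus set 7 from 0.67 to 1.55 over 22. Sucrose gave no call for FHL: 0.03 in ATGE_101 minus set 100 (adjusted p = 0.9) and 0.16 in set 97 minus set 96 (adjusted p = 0.35). Sets 100 and ATGE_101, which did not overlap in AFR, differed in FHL by less than their SD, and r over 24 arrays was -0.34.

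Of the 27 F-box and SCF genes, 4 had a probe set and 3 were tested, since UFO, a floral F-box gene, read at most 1.78 as a set mean. SKP2A is an F-box protein of cell-cycle control. It read 204 ± 13.9 in set 100 and 267 ± 12.5 in ATGE_101, against 114 ± 1.87 in set 96 and 110 ± 8.22 in set 97 (SD, n = 3 each). SKP2A rose from set 96 to set 100 by 0.80 (limma, adjusted p = 3.6e-06) and from set 97 to ATGE_101 by 1.23 (adjusted p = 8.2e-09). With sucrose it was higher in ATGE_101 than in set 100 by 0.38 (adjusted p = 0.013, 0.0048 to 0.067 over 16 alternatives; lost without array B of set 100 at 0.067 or array A of ATGE_101 at 0.051), as AFR was. The difference of the sucrose effects was 0.43 with an adjusted p of 0.056, and 0.018 to 0.13 over 22 alternatives.

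SLY1, the F-box protein that removes the DELLA repressors of gibberellin signalling, read 64.7 ± 6.08 in set 7 and 97.1 ± 21.4 in set 96 (SD, n = 3 each), a rise of 0.52 (limma, adjusted p = 0.0028). AT1G23390, entered in the F-box list, read 126 ± 20.3 in set 7, where AFR was highest, and 980 ± 5.11 in set 96 (SD, n = 3 each), a rise of 2.90 (adjusted p = 4e-11). In set 22 it read 497 ± 126 (SD, n = 3), above sets 23 and 24 by 0.62 (adjusted p = 0.014, 0.006 to 0.15 over 19 alternatives), the opposite sign to AFR. That call was lost without array C of set 22, at 0.11. The 3 F-box genes were all higher in set 96 than in set 7, where 30.4% of all probe sets were called higher. Their median difference was 0.52, and that over all tested probe sets -0.12. SKP2A lost this call, at 0.054 to 0.070, without array A or C of either set.

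GI, a large clock protein that also carries light input to the clock and to flowering, was the 1 gene of 18 on the clock list with a probe set. It read 41.0 ± 3.28 in set 7 and between 87.8 and 127 as set means elsewhere (n = 3 each), so it was lowest where AFR was highest. Whole plants minus set 7 was 1.34 (limma, adjusted p = 3e-10), and set 96 minus set 7 was 0.99 (adjusted p = 3.6e-07). In ATGE_101 it read 122 ± 2.71 against 91.4 ± 4.18 in set 100 (SD, n = 3 each), a difference of 0.39 (adjusted p = 0.033). The adjusted p of that difference ran from 0.0089 to 0.11 over 16 alternatives, and the call was lost when any 1 of the 6 arrays compared was left out, at 0.059 to 0.11.

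**Figure D4:**
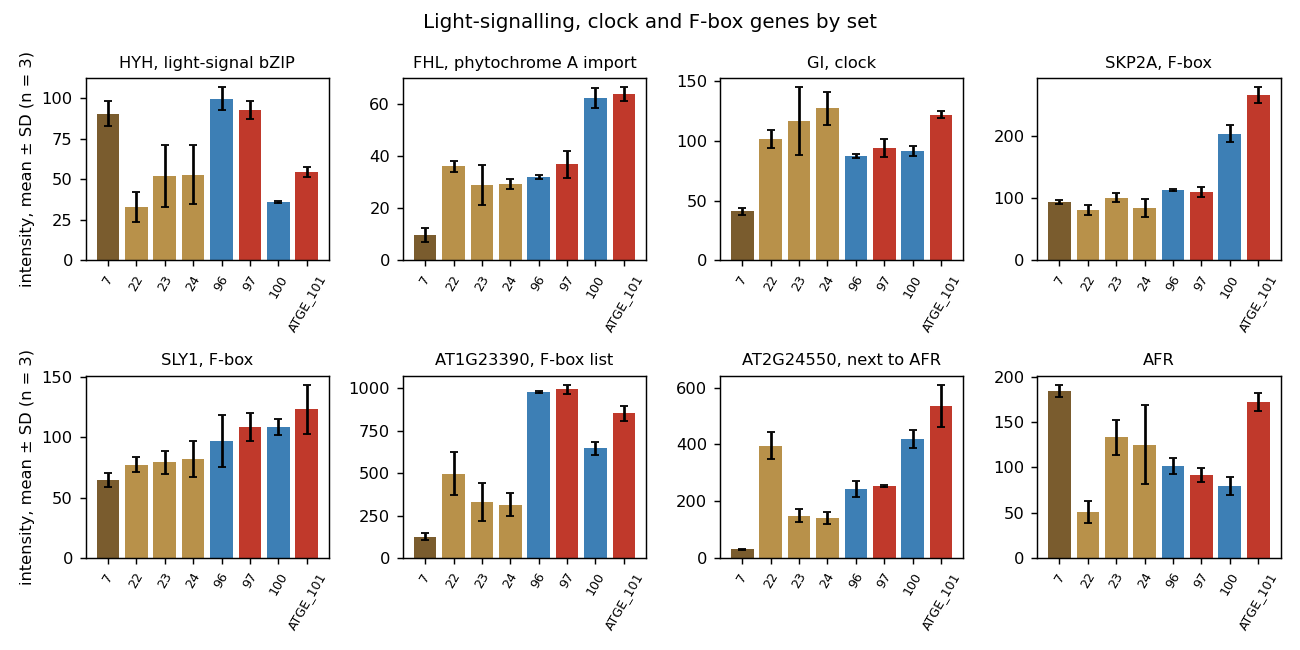
Mean intensity ± SD of 3 arrays (y axis, linear, arbitrary units, each panel with its own scale starting at 0) by set (x axis) for HYH, FHL, GI, SKP2A, SLY1, AT1G23390, AT2G24550 and AFR; brown is soil seedlings, tan whole plants, blue medium and red medium with sucrose. HYH and SKP2A part sets 96 and 97 from sets 100 and ATGE_101 in opposite directions, and FHL and GI are lowest in set 7, where AFR is highest.

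Taking all lists, 18 of 133 genes had a probe set and 16 were tested in each comparison. With sucrose, 1 of the 16 was higher and 5 lower in set 97 than in set 96, against 20.9% and 12.1% of all probe sets. In ATGE_101 against set 100, 3 were higher and 4 lower, against 9.9% and 6.77% of all probe sets. Sugar-repressed genes made up the lower calls apart from ICL: AKINBETA1, a subunit of the SnRK1 energy-sensing kinase, fell by 1.06 in the first pair (limma, adjusted p = 2.5e-06). It fell by 0.47 in the second (adjusted p = 0.015, 0.0032 to 0.072 over 16 alternatives; lost without array B of set 100 at 0.055 or array C of ATGE_101 at 0.05). LHCB4.3 was higher with sucrose in both pairs, by 0.59 in each (adjusted p = 0.013 and 0.026). The call was lost without array B or C of set 96 or array A of set 97 in the first pair, at 0.058 to 0.071, and in the second without any array of set 100 or without B or C of ATGE_101, at 0.057 to 0.091. All 4 measured genes of the sugar starvation list, which are AKINBETA1, MCCA, MCCB and IVD, were called lower with sucrose in both pairs, though MCCB lost the second call without array C of ATGE_101 (adjusted p = 0.053).

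Between set 22 and the mean of 23 and 24, 2 of the 16 list genes were higher and 1 lower, against 7.69% and 9.89% of all probe sets. Between sets 24 and 23 none of the 16 passed the limma test, against 0.853% of all probe sets. An unadjusted p under 0.05 (limma) was reached by 2 of the 16 and by 2120 of all 15471 probe sets, a similar share. Whole plants against set 7 gave 6 higher and 3 lower, with 33.3% and 31.9% of all probe sets. Set 96 against set 7 gave 12 higher and 1 lower, with 30.4% and 40.4% of all probe sets.

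The genes beside AFR on its chromosome were read after their values had been seen. AT2G24550, the next measured gene, read 30.2 ± 3.13 in set 7, 395 ± 47.1 in set 22, 149 ± 23.4 in set 23 and 141 ± 20.6 in set 24 (SD, n = 3 each). In the medium-grown sets it read 244, 253, 419 and 535 in sets 96, 97, 100 and ATGE_101. On soil it was lowest in set 7, where AFR was highest, and highest in set 22, where AFR was lowest, while both genes had a slightly higher mean in set 23 than in set 24. Set 22 minus the mean of sets 23 and 24 was 1.41 (limma, adjusted p = 9.9e-09), and whole plants minus set 7 was 2.5 (adjusted p = 8.5e-14). On medium the mirror did not hold, as both genes had a higher mean in ATGE_101 than in set 100, by 0.34 for AT2G24550 (adjusted p = 0.077, 0.029 to 0.43 over 16 alternatives). Its r with AFR was -0.48 over 24 arrays and 0.49 over deviations from the set means, so the sign turned within sets. AT2G24530, on the other side, had set means between 20.5 and 34.2. A long non-coding RNA, AT2G24545, overlaps AFR in the RefSeq annotation and has no probe set named for it here, and whether the AFR probes also read it is not known here.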

How the data were processed

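Per the submitters' processing notes the values came from MAS5, and the authors deposited them as linear intensities for 22810 probe sets on 24 arrays; version and scaling target are not given in the sources used here, though the mean without the outer 2% at each end is 100.0 on every array. Precision is limited by the 3 arrays per set. The 64 control probe sets were set aside. Of the others, 13513 name 1 gene, 503 several and 8730 none. Values were taken as log2(intensity + 6.75), the pseudocount being the 20th percentile of the table, and a fold on this scale understates changes of low genes. Probe sets above 22.9 (the 40th percentile) on at least 3 arrays were kept, leaving 15471. One limma 3.58.1 model (R 4.3.3) over all 8 sets gave differences, with Benjamini-Hochberg adjustment over all probe sets and a threshold of 0.05. The model was also run on simulated data in which a probe set had the same spread in every set. That run does not cover unequal spread, and the log2 SD of AFR ran from 0.053 in set 7 to 0.45 in set 24. AFR itself got no p-value. Likeness was ranked by Pearson's r with AFR over 24 arrays, naming the 8 highest and 4 lowest genes with a tested single-gene probe set; list genes were named where tested. AFR, the gene lists and the tests were chosen with earlier results of these data known. No promoter, protein or genome sequence was used here, so a planned search for promoter motifs was not run. Alternatives changed the pseudocount, filter, scaling, fit, replicate block and the arrays included; leaving out array A of sets 24, 100 and ATGE_101 together was added after seeing the data.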

Additional observations from a re-analysis of the deposited data

Results flagged for a closer look

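Among the named list genes, 4 had sucrose effects that differed between the pairs by the interaction test (ATGE_101 minus set 100, less set 97 minus set 96; limma over all probe sets, of which 12% passed). The difference was 1.87 for ICL (adjusted p = 3.2e-07), whose sucrose effects were -1.95 in the first pair (set 97 minus set 96) and -0.08 in the second, where both sets read under 2 units. It was 1.22 for MCCA, a subunit of methylcrotonyl-CoA carboxylase (adjusted p = 1.3e-05), with effects of -2.01 and -0.79. It was 0.81 for IVD, isovaleryl-CoA dehydrogenase of leucine breakdown (adjusted p = 0.0017), with effects of -1.40 and -0.59. It was 0.59 for AKINBETA1 (adjusted p = 0.038), with effects of -1.06 and -0.47. Over 22 alternatives its adjusted p ran from 0.0013 to 0.11, and 14 of them lost the call, among them leaving out any array of sets 97, 100 and ATGE_101 or array B or C of set 96. In all 4 the first effect was the more negative, as in AFR, whose effects were -0.15 and 1.05; the second effect was below 0 in the 4 genes and above 0 in AFR. No set holds more than 3 arrays, so single arrays were not tested as outliers.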

How the results depend on the processing

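The order of the 8 AFR set means was the same under quantile normalization and under a common 75th percentile, which set the mean of set 7 at 192. AFR in set 22 minus sets 23 and 24 was -0.99 with a pseudocount 4 times larger. AFR in set 24 minus 23 ran from -0.39 to 0.015 when 1 array was left out, with -0.39 without array A of set 24, alone or with array A of sets 100 and ATGE_101. No other AFR difference moved by more than its spread or changed sign under the alternatives run. Under quantile normalization LHCB4.1 turned from -0.67 to 0.028 in set 100 minus whole plants and from -0.65 to 0.044 in ATGE_101 minus whole plants; the cause was not tested. Fitting only the sets compared gave 0 calls in 24 minus 23 (1273 at an unadjusted p under 0.05, limma) in place of 132, 1319 in place of 2720 in set 22 minus 23 and 24, with 0 list genes in place of 3, and 3076 in place of 1855 in the difference of the sucrose effects, with 9 list genes in place of 4. Calls in 24 minus 23 were 76 with no filter and 44 to 370 with 1 array left out (76 without B of set 23, 370 without B and 44 without C of set 24); 49.2% of the 132 were higher, 39.1% after quantile normalization and 34.0% with the common percentile. List calls with 1 array left out were 0 to 1 in 24 minus 23 (PYK10, without C of set 23), 5 to 9 in 100 minus 96 (5 without A of set 100) and 3 to 6 in ATGE_101 minus 100 (3 without B of set 100 or C of ATGE_101); without the 3 A arrays together they were 5 and 4. Of the 8 genes most like and 4 most opposite to AFR, 4 and 1 stayed over set means, 5 and 2 by Spearman's rank correlation, 0 and 0 over deviations from set means, and 2 to 7 and 0 to 3 with 1 set left out, fewest of the 8 without ATGE_101. Over all pairs of sets the array letters gave little sign of pairing: 2 of 84 same-letter correlations of deviations exceeded 0.1. Between set 100 and ATGE_101 the correlations were all above 0, at 0.096, 0.083 and 0.034 for letters A, B and C. With the letter as a replicate block AFR kept each value, as the design is balanced, calls were 2489 in place of 2578 in ATGE_101 minus 100 and 2694 in place of 2720 in set 22 minus 23 and 24, and HYH lost its call in the latter (adjusted p = 0.051).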
